A study of Saccharomyces cerevisiae with 6 samples.

Results

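The genes described here encode the machinery that carries proteins made in the cytosol into mitochondria and sorts them within the organelle. They were chosen by name, as known subunits of the mitochondrial translocases and their closest helpers in Saccharomyces cerevisiae. The rule used no measured values, but the list was drawn up with earlier results of these data known. All 34 genes named had a probe set, 1 each, among the 5498 probe sets of the array that name a gene. Both groups were BY4743, a diploid laboratory strain that lacks HIS3, LEU2 and URA3, and both were grown in minimal medium at 30 °C from a single colony to an OD600 of 1.0. The oxidant group then received 75 µM linoleic acid hydroperoxide (LoaOOH), a dose labelled as arresting, and the control group the same volume of methanol. Cells were collected 1 h later, with 3 samples labelled as biological replicates in each group and 1 Affymetrix Yeast Genome 2.0 array for each. Every sample is recorded as a 50 mL aliquot. Whether the replicates were separate cultures or aliquots of a shared culture was not established. A single strain, dose and time were measured, so the values describe no time course.

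Nearly all mitochondrial proteins enter through the TOM complex of the outer membrane. From there, β-barrel proteins go to the SAM complex, carrier proteins pass with the help of small TIM chaperones to the TIM22 complex, and proteins with an N-terminal presequence pass through the TIM23 channel, pulled in by a motor built around mitochondrial Hsp70. Small cysteine-rich proteins of the intermembrane space are trapped there by the MIA pathway, which forms their disulfide bonds, and the presequence is removed in the matrix by the mitochondrial processing peptidase.

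Relative to the typical message, 7 of the 8 genes of the entry gate and 4 of the 5 genes of the small TIM chaperones rose after LoaOOH. All 4 genes listed for the TIM23 channel and 3 of the 5 listed for its motor fell. Of the 34 genes, 16 rose, 12 fell and 6 were not called (limma, Benjamini-Hochberg adjusted p under 0.05 over all 5498 probe sets). LoaOOH changed most messages on the array: 78.7% of all probe sets were called, 36.8% higher and 41.9% lower, so the 82.4% of import genes called is near the background and is not a result about them. The median log2 difference (LoaOOH minus methanol) of the 34 genes was 0.075, and that of all probe sets was -0.034. The differences ranged from -0.87 for PAM16 to 1.06 for TIM9. Called differences of at least 0.5 on the log2 scale numbered 10 among the 34 genes, 6 upward and 4 downward, where 33.3% of all probe sets had one, 15.5% upward and 17.8% downward. In 28 of the 34 genes the 3 LoaOOH arrays lay wholly above or below the 3 methanol arrays, which was the case for 81.1% of all probe sets.

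The arrays' scale bears on every direction given here. The deposited values are relative to the typical message of the same array. Bacterial poly-A messages are added to each RNA sample as a spike-in, and the 36 probe sets for them had a mean of 7.44 ± 0.165 (SD, n = 3) in methanol and 6.93 ± 0.125 in LoaOOH (exact permutation p = 0.1, the smallest that 3 against 3 arrays allow). Scaling to them raises every log2 difference by 0.518, the median of all probe sets becomes 0.484, and 65.9% are then called higher and 7.68% lower. With it, 26 of the import genes were higher, 3 were lower (TIM23, PAM16 and OXA1) and the median was 0.594. Which scaling is nearer to the amount per cell was not tested. All 6 arrays held the import genes well above background, since the lowest value of any was 9.54 and the brightest negative control probe set averaged 5.15.

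**Figure D1:**
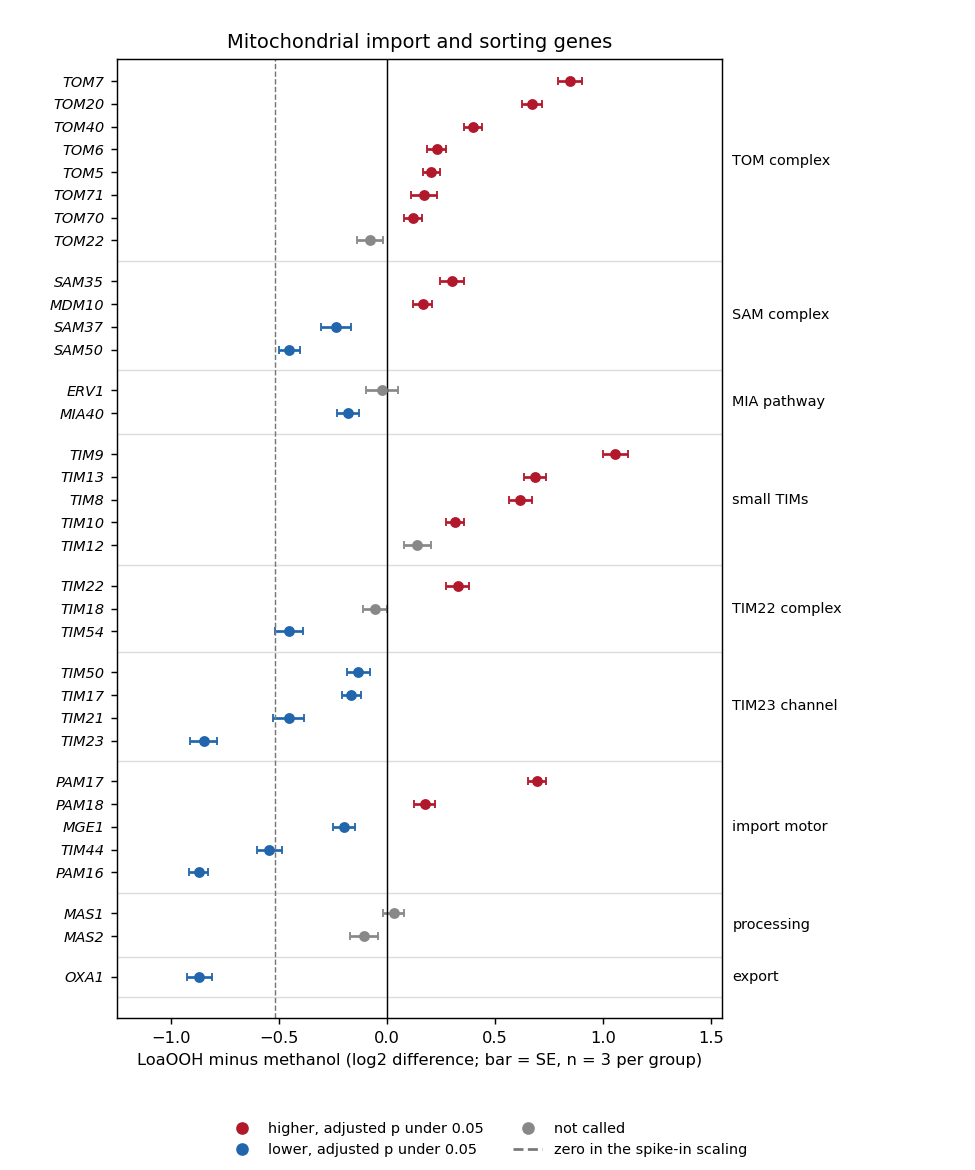
Log2 difference between LoaOOH and methanol (x axis, with the standard error, n = 3 per group) for each of the 34 import and sorting genes, grouped by translocase; red points were called higher, blue lower and grey not called. Apart from TOM22, all TOM genes lie right of zero, while the 4 TIM23 channel genes lie left of it; the dashed line shows where zero falls in the spike-in scaling, and TIM44, TIM23, PAM16 and OXA1 lie left of that line.

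The TOM complex is the common entry gate. Of its 8 genes 7 rose, 0 fell and TOM22 was not called, with a median difference of 0.22. For all probe sets the shares were 36.8% higher and 41.9% lower. TOM7, a small subunit that controls assembly and disassembly of the complex, stood at 12.55, 12.42 and 12.50 on the methanol arrays and at 13.32, 13.28 and 13.42 on the LoaOOH arrays. All 3 LoaOOH arrays were above all 3 methanol arrays, by a mean of 0.85 or 1.80-fold (SE 0.055, adjusted p = 8.78e-07). TOM20, the receptor that first binds presequences, read 11.87, 11.84 and 11.76 in methanol and 12.50, 12.52 and 12.46 in LoaOOH. It rose 1.59-fold (log2 difference 0.67, SE 0.046, adjusted p = 1.25e-06), again with no overlap.

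TOM22, the receptor that works with Tom20 and organises the complex, read 12.58, 12.66 and 12.75 in methanol and 12.54, 12.55 and 12.67 in LoaOOH. Its groups overlapped and its difference of -0.078 did not pass the test (adjusted p = 0.244). TOM40, the pore itself, read 12.39, 12.46 and 12.37 in methanol and 12.80, 12.80 and 12.81 in LoaOOH, a rise of 1.32-fold (log2 difference 0.40, SE 0.043, adjusted p = 2.34e-05). The other small subunits rose less: TOM6, which stabilises the complex, by 0.23 (adjusted p = 0.000816), and TOM5, which hands precursors from the receptors to the pore, by 0.21 (adjusted p = 0.00125). TOM6 ran from 13.06 to 13.07 in methanol and from 13.27 to 13.34 in LoaOOH, and TOM5 from 12.10 to 12.12 and from 12.29 to 12.34, without overlap.

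The receptor of carrier precursors, TOM70, and its paralog TOM71 had the smallest rises of the complex. TOM70 read 12.94, 12.91 and 12.86 in methanol and 13.03, 13.02 and 13.02 in LoaOOH (log2 difference 0.12, adjusted p = 0.0259). TOM71 read 10.77, 10.66 and 10.58 in methanol and 10.85, 10.90 and 10.78 in LoaOOH (log2 difference 0.17, adjusted p = 0.0239). Neither group of arrays overlapped the other, but both calls depended on single arrays. TOM70 lost its call without methanol replicate 2 (adjusted p = 0.0717) or 3 (0.0539) or LoaOOH replicate 1 (0.0521), 2 (0.0616) or 3 (0.0614), and its difference was 0.0054 after quantile normalisation (adjusted p = 0.913). TOM71 lost its call without methanol replicate 2 (0.0657) or 3 (0.0712) or LoaOOH replicate 1 (0.0523) or 2 (0.0842), and with no variance moderation (0.078). All 8 TOM genes were higher in the spike-in scaling, as were 65.9% of all probe sets.

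The small TIM proteins form ring-shaped chaperones that escort hydrophobic precursors across the intermembrane space. Of the 5 genes 4 rose, 0 fell and TIM12 was not called, where 36.8% of all probe sets rose and 41.9% fell. Their median difference of 0.62 was the highest among the translocase groups. TIM9 read 11.71, 11.73 and 11.86 in methanol and 12.75, 12.83 and 12.89 in LoaOOH, the largest difference of the 34 genes. Its 2.08-fold rise (log2 difference 1.06, SE 0.057, adjusted p = 3.07e-07) came with no overlap. TIM10, whose product forms the main carrier-binding ring together with Tim9, read 13.43, 13.43 and 13.48 in methanol and 13.72, 13.80 and 13.77 in LoaOOH. It rose 1.24-fold (log2 difference 0.31, SE 0.043, adjusted p = 0.000121).

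The second ring is built of Tim8 and Tim13, which assist precursors such as that of Tim23. TIM13 read 11.89, 11.79 and 11.85 in methanol and 12.52, 12.47 and 12.60 in LoaOOH, a rise of 1.61-fold (log2 difference 0.69, SE 0.050, adjusted p = 2.01e-06). TIM8 rose 1.54-fold, by 0.62 (SE 0.054, adjusted p = 6.14e-06), from between 12.31 and 12.43 in methanol to between 12.91 and 13.05 in LoaOOH. TIM12, whose product docks the chaperones onto the TIM22 complex, read 10.64, 10.66 and 10.83 in methanol and 10.78, 10.87 and 10.91 in LoaOOH. Its groups overlapped and the difference of 0.14 missed the threshold (adjusted p = 0.0637), a status that is not firm. It was called higher without methanol replicate 3 (0.00757) or LoaOOH replicate 1 (0.0387), and under quantile normalisation (0.033), centring on array medians (0.0285), array weights (0.00158), a variance trend with robust fitting (0.0474) and a filter on the dimmest probe sets (0.0476). All 5 were higher in the spike-in scaling, as were 65.9% of all probe sets.

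The 3 measured genes of the TIM22 complex, which inserts carriers into the inner membrane, went separate ways. TIM22, the channel, read 9.54, 9.54 and 9.59 in methanol and 9.95, 9.78 and 9.92 in LoaOOH, a rise of 1.25-fold (log2 difference 0.33, SE 0.052, adjusted p = 0.000353). TIM54, a subunit that exposes a large domain to the intermembrane space, read 11.17, 11.32 and 11.43 in methanol and 10.88, 10.83 and 10.85 in LoaOOH. It fell by 0.45 on the log2 scale (SE 0.065, adjusted p = 0.000167). TIM18 read 10.67, 10.77 and 10.75 against 10.72, 10.58 and 10.73, with overlapping groups and a difference of -0.054 (adjusted p = 0.381). Scaled to the spike-ins, TIM54 stood at 0.065 and was not called, and the other genes of the complex were higher.

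The TIM23 channel takes in proteins with a presequence. Its 4 genes listed here all fell, with a median of -0.31, and 41.9% of all probe sets fell. MGR2, a further subunit gene of this complex counted below with the other pathway genes, rose by 0.37 (adjusted p = 0.000176). TIM23, the gene of the channel protein, read 11.70, 11.64 and 11.60 in methanol and 10.93, 10.75 and 10.71 in LoaOOH. The fall was 0.85 on the log2 scale, a ratio of 1.80-fold (log2 difference -0.85, SE 0.063, adjusted p = 2.31e-06), and no LoaOOH array reached the methanol range. TIM21, which links the channel to TOM and to the respiratory chain, read 12.05, 12.09 and 12.29 in methanol and 11.60, 11.74 and 11.73 in LoaOOH (log2 difference -0.46, SE 0.071, adjusted p = 0.000283).

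The other channel genes had smaller differences. TIM17, the partner of Tim23 in the channel, read 13.05, 13.05 and 13.14 in methanol and 12.91, 12.92 and 12.92 in LoaOOH (log2 difference -0.17, SE 0.044, adjusted p = 0.00688). TIM50, the receptor that takes over presequences from TOM, read 11.22, 11.19 and 11.05 in methanol and 11.03, 11.02 and 10.99 in LoaOOH, groups that lie side by side without overlap. Its difference of -0.13 was barely called (adjusted p = 0.0445). The call was lost without methanol replicate 1 (adjusted p = 0.149) or 2 (0.14) or LoaOOH replicate 1 (0.0635), 2 (0.0852) or 3 (0.12), and with quantile normalisation (0.0653), centring (0.114) or no variance moderation (0.0887). In the spike-in scaling TIM23 was the channel gene that stayed lower (-0.33), TIM17 and TIM50 turned higher (0.35 and 0.39) and TIM21 was not called.

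The import motor showed the widest spread of any translocase group, with 2 of its 5 genes higher and 3 lower. Among all probe sets 36.8% were higher and 41.9% lower, and 5 genes are too few to tell these counts from that background. PAM16, whose J-like product holds the J protein Pam18 at the channel and restrains it, read 10.93, 10.93 and 10.94 in methanol and 10.003, 10.08 and 10.10 in LoaOOH. It fell by 0.87 on the log2 scale, a ratio of 1.83-fold (log2 difference -0.87, SE 0.044, adjusted p = 1.87e-07), with tight groups far apart. PAM18, which stimulates the ATPase of mitochondrial Hsp70, read 11.38, 11.49 and 11.52 in methanol and 11.62, 11.65 and 11.63 in LoaOOH, a rise of 0.17 (SE 0.048, adjusted p = 0.00873). PAM17, a factor that helps organise the motor, read 11.58, 11.56 and 11.53 in methanol and 12.23, 12.29 and 12.24 in LoaOOH, a rise of 1.62-fold (log2 difference 0.70, SE 0.042, adjusted p = 6.25e-07).

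TIM44, the platform that tethers mitochondrial Hsp70 to the channel, read 11.16, 11.17 and 11.16 in methanol and 10.74, 10.58 and 10.54 in LoaOOH. It fell by 0.54 on the log2 scale (SE 0.057, adjusted p = 2.19e-05). MGE1, the nucleotide exchange factor of that Hsp70, read 13.20, 13.29 and 13.32 in methanol and 13.001, 13.10 and 13.11 in LoaOOH (log2 difference -0.20, SE 0.051, adjusted p = 0.00608). The motor thus held both the largest fall of the 34 genes and, in PAM17, the third largest rise. Scaled to the spike-ins, PAM16 was lower (-0.35), TIM44 was not called (-0.026) and the other motor genes were higher.

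**Figure D2:**
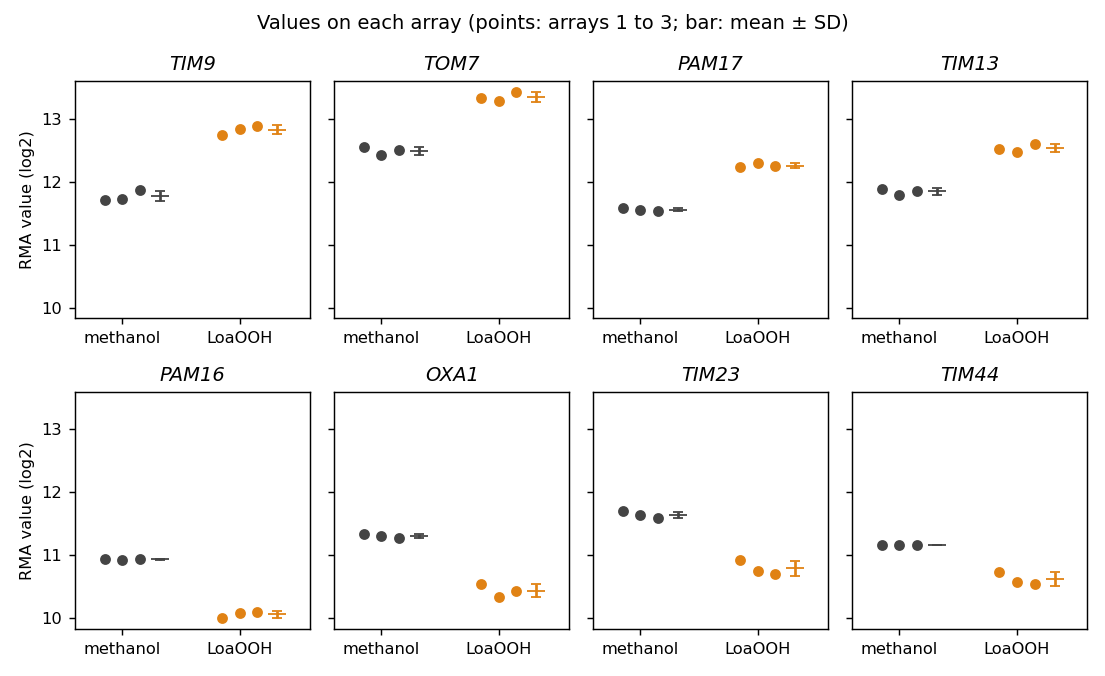
RMA values (log2, y axis) on each of the 3 methanol (dark) and 3 LoaOOH (orange) arrays for the 4 genes with the largest called rises and the 4 with the largest called falls, with the mean ± SD beside the points. In each of the 8 genes the points of the groups do not overlap; levels of different genes are not comparable, because probe sets differ in brightness.

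The SAM complex inserts β-barrel proteins into the outer membrane, and 2 of its 4 genes were higher and 2 lower. With so few genes, these counts cannot be told from the 36.8% higher and 41.9% lower of all probe sets. SAM50, the channel and itself a β-barrel, read 10.97, 11.07 and 11.07 in methanol and 10.56, 10.63 and 10.56 in LoaOOH. It fell by 0.45 on the log2 scale (SE 0.048, adjusted p = 2.2e-05). SAM35, which recognises the sorting signal of β-barrel precursors, read 11.41, 11.40 and 11.27 in methanol and 11.74, 11.65 and 11.60 in LoaOOH, a rise of 1.23-fold (log2 difference 0.30, SE 0.056, adjusted p = 0.00095). SAM37, which helps to release folded proteins from the complex, read 10.598, 10.69 and 10.83 against 10.36, 10.51 and 10.55 (log2 difference -0.24, adjusted p = 0.0134), a call that was lost with no variance moderation (adjusted p = 0.0731). MDM10, shared between SAM and the tether to the endoplasmic reticulum, rose by 0.17 (adjusted p = 0.00737), from 10.12, 10.06 and 10.16 to 10.31, 10.25 and 10.27. In the spike-in scaling SAM35 and MDM10 were higher, and SAM50 (0.066) and SAM37 (0.28) were not called.

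The MIA pathway oxidises the small TIM proteins on arrival, and of its genes 1 fell and 1 was not called in the deposited scaling. MIA40, the receptor that passes disulfide bonds to its substrates, read 11.94, 12.06 and 12.05 in methanol and 11.78, 11.89 and 11.84 in LoaOOH, a fall of 0.18 on the log2 scale (log2 difference -0.18, SE 0.051, adjusted p = 0.00925). ERV1, the sulfhydryl oxidase that recharges Mia40, read 11.51, 11.50 and 11.75 against 11.48, 11.59 and 11.62, with overlapping groups and a difference of -0.022 (adjusted p = 0.792). Both were higher in the spike-in scaling, at 0.34 and 0.50, as were 65.9% of all probe sets.

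Neither subunit of the mitochondrial processing peptidase was called. MAS1, the catalytic β subunit, read 11.09, 11.17 and 11.15 in methanol and 11.23, 11.12 and 11.17 in LoaOOH (log2 difference 0.031, adjusted p = 0.553). MAS2, the α subunit that binds presequences, read 10.66, 10.61 and 10.53 in methanol and 10.62, 10.46 and 10.41 in LoaOOH (log2 difference -0.10, adjusted p = 0.169), and was called lower without LoaOOH replicate 1 (adjusted p = 0.0238) and with array weights (0.01004). OXA1, the insertase that places proteins into the inner membrane from the matrix side, read 11.34, 11.31 and 11.27 in methanol and 10.55, 10.33 and 10.43 in LoaOOH. It fell by 0.87 on the log2 scale, a ratio of 1.83-fold (log2 difference -0.87, SE 0.058, adjusted p = 1.09e-06), and it was lower in the spike-in scaling as well (-0.35). Against a log2 difference of 0.5 as the null (limma treat), TOM7, TOM20, TIM9, TIM13 and PAM17 were called higher, and TIM23, PAM16 and OXA1 lower. The share of all probe sets that this test called is not given here, so the number of calls is not a result about these genes.

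Genes known as partners or paralogs were compared within each array, which removes an additive scale of the array. For 12 pairs the log2 value of the first gene minus that of the second was compared between groups with a two-sided exact permutation test, which cannot give a p below 0.1, or 0.133 after adjustment over the 12 pairs as found here. No pair could therefore pass a threshold of 0.05. How often other pairs of genes separate between the groups is not given here. Of all single probe sets 81.1% did not overlap between groups, so separation of a pair is not by itself a result about partners. PAM16 relative to PAM18 shifted the furthest: the within-array difference was -0.44, -0.56 and -0.58 in methanol and -1.62, -1.58 and -1.53 in LoaOOH, a change of -1.05 (SE 0.050, exact p = 0.1). TIM9 gained on TIM10 by 0.74 (SE 0.043, exact p = 0.1), from -1.71, -1.71 and -1.62 to -0.97, -0.96 and -0.88. TOM20 gained on TOM22 by 0.75 (SE 0.0997, exact p = 0.1) and TIM17 on TIM23 by 0.68 (SE 0.091, exact p = 0.1).

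Smaller shifts without overlap (exact p = 0.1 each) were seen for SAM35 over SAM37 (0.54, SE 0.148), TIM18 over TIM54 (0.40, SE 0.066), TIM50 over TIM21 (0.32, SE 0.138), TIM10 over TIM12 (0.17, SE 0.052) and MIA40 against ERV1 (-0.16, SE 0.078). The groups overlapped for TIM8 and TIM13 (change -0.067, SE 0.050, exact p = 0.3), for the paralogs TOM70 and TOM71 (-0.054, SE 0.049, exact p = 0.4) and for MAS1 and MAS2 (0.13, SE 0.076, exact p = 0.2). Several of these smaller shifts depended on the setting. Under quantile normalisation the change was -0.20 for TOM70 and TOM71 and -0.12 for TIM8 and TIM13 (exact p = 0.1 each), 0.12 for TIM10 and TIM12 (exact p = 0.2), -0.15 for MIA40 and ERV1 (exact p = 0.3) and 0.095 for MAS1 and MAS2 (exact p = 0.5). The change of TIM50 over TIM21 was 0.20 without methanol replicate 3, and that of MIA40 against ERV1 was -0.096 without methanol replicate 2. For comparison, TIM8 and TIM13 rose by 0.62 and 0.69, and TIM9 and TIM10 by 1.06 and 0.31.

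**Figure D3:**
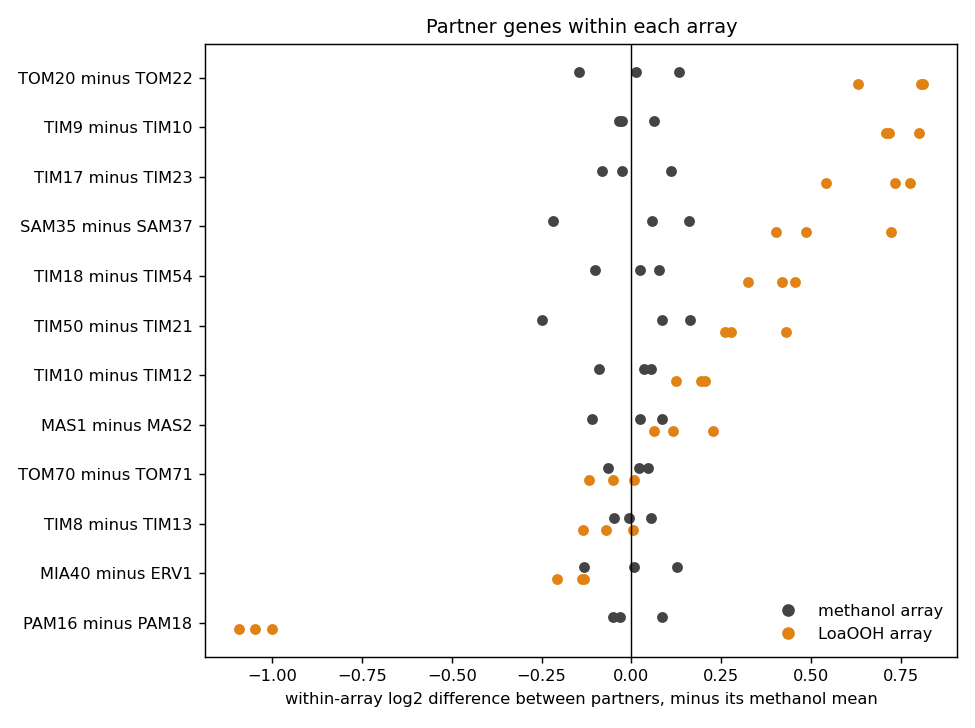
Within-array log2 difference between partner genes (x axis), with the methanol mean of each pair set to zero, for 12 pairs and 6 arrays; dark points are methanol arrays and orange points LoaOOH arrays. The orange points lie apart from the dark ones in 9 pairs, the furthest for PAM16 minus PAM18, and mix with them for TOM70 minus TOM71, TIM8 minus TIM13 and MAS1 minus MAS2. The share of other gene pairs that separate is not given here, and 81.1% of all single probe sets did not overlap between groups.

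Many of the import genes are short, and short genes tended to be higher across the array. The 8 import genes under 400 nt (TOM5, TOM6, TOM7, TIM8, TIM9, TIM10, TIM12 and TIM13) had a median difference of 0.47, with 7 higher and 0 lower. Over all 444 probe sets for genes of that length the median was 0.18, with 52.5% higher and 20.9% lower. The 14 import genes of 400 up to 1000 nt had a median of -0.066, against -0.0048 for the 1679 probe sets of that length, and the 12 of at least 1000 nt a median of -0.12, against -0.081 for 3375 probe sets. Across the 34 genes the difference and gene length had a Spearman rho of -0.46, and across all 5498 probe sets -0.13. These are correlations across genes of the same 6 arrays, and genes are not independent replicates. The gap of 3' over 5' probe sets within a control message reflects RNA or labelling quality, and it moved up after LoaOOH for 4 of 7 control messages and down for 3, from -0.15 for WBP1 to 0.58 for SRB4. The part of gene length or of RNA quality in the small TIM and small TOM rises was not tested. The splits at 400 and 1000 nt were chosen after the values were seen.

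**Figure D4:**
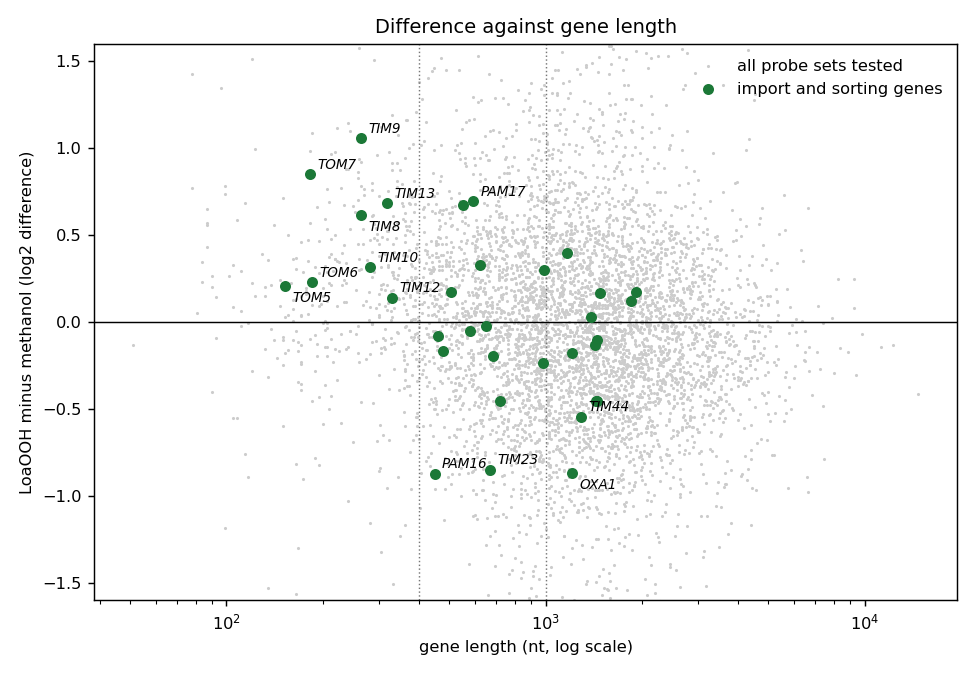
Log2 difference between LoaOOH and methanol (y axis) against gene length (nt, log scale) for all 5498 probe sets (grey) and the 34 import and sorting genes (green), with dotted lines at 400 and 1000 nt. The 8 import genes left of the first line all lie above zero, and the 129 probe sets beyond ±1.6 are outside the plotted range.

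Import is needed for growth, and many of these genes are known as essential. Of the 19 essential genes 6 were higher and 8 lower (median -0.078). Of the 14 nonessential genes 10 were higher and 3 lower (median 0.19). Over all probe sets 36.8% were higher and 41.9% lower, near the 31.6% and 42.1% of the essential genes. Of the genes under 400 nt, TOM5, TOM6, TOM7, TIM8 and TIM13 are nonessential and TIM9, TIM10 and TIM12 essential. The part of gene length in these counts was not tested. The small TIM genes TIM9 and TIM10 are the essential members among the rises of that group, and TIM8 and TIM13 are not essential. TIM54 was left out of both counts because its status depends on conditions.

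A further 34 genes of the pathway, listed by function, were measured alongside. Of these 19 rose, 9 fell and 6 were not called, with a median of 0.24, and in the spike-in scaling 27 were higher and 1, OM45, was lower. The 82.4% called is near the 78.7% of all probe sets and is not a result about these genes. By direction 55.9% were higher and 26.5% lower, against 36.8% and 41.9% of all probe sets. The largest rises were those of MDM34, a subunit of the tether between the endoplasmic reticulum and mitochondria (2.26-fold, log2 difference 1.17, SE 0.040, adjusted p = 2.15e-08), and XDJ1, a J protein (2.18-fold, log2 difference 1.12, adjusted p = 4.51e-08). MIM2, which with Mim1 inserts helical proteins into the outer membrane, rose by 0.92 (adjusted p = 6.03e-07). HOT13, a zinc-binding protein of the intermembrane space that assists Mia40 and small TIM assembly, rose by 0.88 (adjusted p = 2.71e-07). MMM1, another subunit of the tether, rose by 0.86 (adjusted p = 1.42e-07).

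The largest falls among these genes were those of OM45, an abundant outer membrane protein (-0.84, adjusted p = 2.84e-06), and MDM12, a soluble subunit of the tether (-0.68, adjusted p = 6.27e-06). The tether genes MDM34, MMM1, MDM10 and MDM12 therefore split, with MDM12 the lower member, as it was in sign in the spike-in scaling (-0.16, not called). SSC1, which encodes the mitochondrial Hsp70 of the motor, fell by 0.55 (SE 0.058, adjusted p = 2.21e-05), SSQ1, an Hsp70 for iron-sulfur cluster proteins, fell by 0.51 (adjusted p = 5.35e-06), and ZIM17, which keeps these Hsp70s soluble, fell by 0.39 (adjusted p = 0.000107). SSC1 stood beside TIM44 (-0.54) and PAM16 (-0.87) among the lower motor genes in the deposited scaling, and at -0.033 in the spike-in scaling (not called). Of the 7 further genes listed for the inner membrane and motor, SSC1, SSQ1 and ZIM17 included, 2 were higher and 4 lower. The higher ones were ECM10 (0.46, adjusted p = 0.00012) and MGR2 (0.37, adjusted p = 0.000176). Among the 6 other genes of export and insertion from the matrix 5 rose and 0 fell, while OXA1 fell. Among the 7 genes listed with the proteases that act on imported proteins, not all of them proteases themselves, 4 rose and 0 fell. Both lists are small, and 36.8% of all probe sets rose and 41.9% fell.

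**Figure D5:**
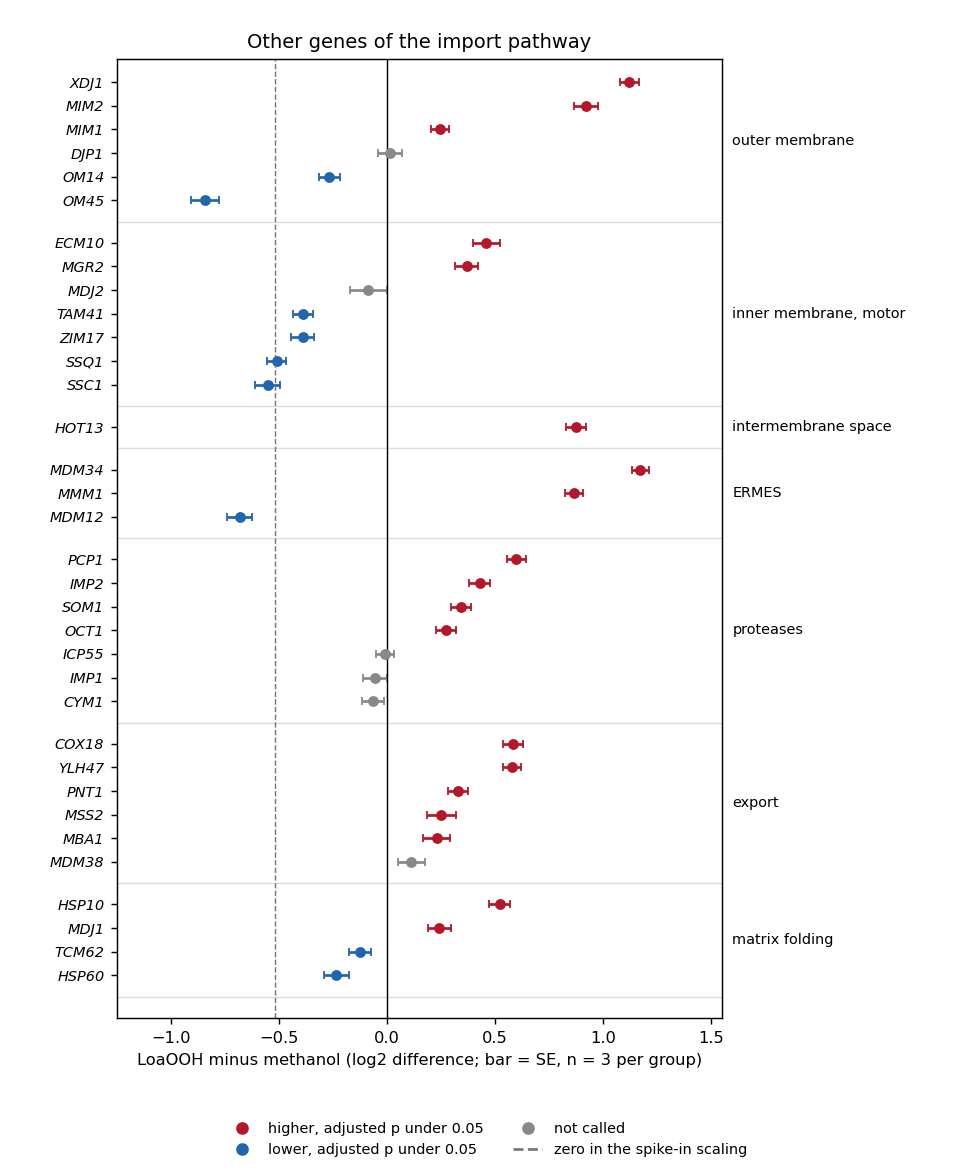
Log2 difference between LoaOOH and methanol (x axis, with the standard error, n = 3 per group) for 34 other genes of the import pathway, grouped by place or function, coloured as called higher (red), lower (blue) or not called (grey). MDM34 and XDJ1 lie furthest right and OM45 furthest left; the dashed line marks zero in the spike-in scaling.

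Genes for large sets of imported proteins are given for comparison, without a test between lists. Among 36 subunit genes of respiratory complexes and ATP synthase 21 were higher and 5 lower (median 0.24), and among 66 mitochondrial ribosomal protein genes 21 were higher and 32 lower (median -0.084). The shares were 58.3% and 13.9% for the first list and 31.8% and 48.5% for the second. Over all probe sets 36.8% were higher and 41.9% lower (median -0.034). The 34 import genes, with 16 higher and 12 lower and a median of 0.075, lay between these lists, and their translocase groups ranged from a median of 0.62 for the small TIM genes to -0.31 for the TIM23 channel, besides the single export gene.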

How the data were processed

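RNA from 3 LoaOOH and 3 methanol samples was hybridised to 1 Affymetrix array each. The authors deposited log2 values of 5900 probe sets, and per the submitters' processing notes they used RMA and Partek; versions, roles, the arrays normalised together and any genome build were not given in the sources used here. RMA subtracts background, equalises array distributions and summarises probes. Array medians lay between 10.59 and 10.63, and the number of arrays limits precision. Kept out were 184 control probe sets and 218 without a gene in the platform annotation. The identifiers of the other 5498 all had an entry in the R64 gene table for yeast, used for names and gene lengths. No import gene overlapped another gene of that table. Groups came from the sample titles. The labels call the replicates biological, but the cells came from a single colony, and each sample was a 50 mL aliquot, possibly of a shared culture. The limma p-values set each group difference against the spread between these samples, with variances moderated over all probe sets. If the culture was shared, that is only the spread between aliquots.

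The groups were compared with limma 3.58.1 in R 4.3.3 (lmFit, eBayes, two-sided, no covariate) over all 5498 probe sets with Benjamini-Hochberg adjustment, tested beforehand on simulated data. Standard errors (SE) are moderated, except for pairs, where they come from the pooled spread. A fold is the larger group over the smaller. The import genes, lists and alternatives were chosen with earlier results of these data known. All 34 import genes are named; the rule gave values per array for the 4 largest called changes each way, for both genes of each pair at the smallest p and for genes not called, and most other genes have them too. Of the other pathway genes the 5 largest called changes each way are named, with ECM10 and MGR2 added. Alternatives were quantile normalisation, centring, spike-in scaling, other variance models, array weights, filters, thresholds, a replicate block and leaving out each array.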

Additional observations from a re-analysis of the deposited data

How the results depend on the processing

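Leaving out each array in turn gave 14 to 16 import genes higher and 11 or 12 lower, with medians from 0.056 to 0.090. The median moved by more than the spread between replicates under quantile normalisation (0.020), centring on array medians (0.11), array weights (0.087) and the spike-in scaling (0.59). It also did so without methanol replicate 1 (0.056) and without LoaOOH replicate 2 (0.090). The spike-in scaling gave 26 import genes higher and 3 lower, and 1 other pathway gene lower. The test against a log2 change of 0.5, which asks for larger changes, called 5 import genes higher and 3 lower, and 5 and 2 of the other pathway genes. Without the share of all probe sets called by that test, which is not given here, these counts are not a result about the genes. In the spike-in scaling 12 differences turned from negative to positive: TOM22 (0.44), SAM37 (0.28), SAM50 (0.066), MIA40 (0.34), ERV1 (0.50), TIM18 (0.46), TIM54 (0.065), TIM17 (0.35), TIM21 (0.063), TIM50 (0.39), MGE1 (0.32) and MAS2 (0.41). ERV1, not called, also turned with centring (0.012), array weights (0.068), without methanol replicate 3 (0.060) and without LoaOOH replicate 1 (0.018), in a range from -0.065 to 0.060 over the arrays left out. With no variance moderation TOM71, SAM37 and TIM50 lost their calls. TOM70 and TIM50 lost theirs under quantile normalisation, and TIM50 under centring. No pair changed direction under quantile normalisation or with any array left out, although sizes and overlaps of the smaller shifts moved. Same-numbered arrays deviated together unevenly (correlations 0.31, 0.049 and 0.26, and 4 of 6 arrays correlated best with their own number). These values do not settle whether the numbers mark pairs, and the main test did not use them as pairs. A replicate block gave 17 higher and 12 lower, with TIM12 the added call (adjusted p = 0.0188). A choice between probe sets of a gene was not run, since each import gene had 1.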
